A study of Mus musculus with 2 samples.

Results

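Rab GTPases are the small switch proteins that give each membrane compartment of a cell its identity and direct vesicles between compartments. The Rab genes described here are the features named Rab followed by a number, with or without a letter and a further digit, in the expression tables of 2 neutrophil libraries. That rule found 58 genes among 35522 features. Of these, 40 had an RPKM of at least 0.25 in both libraries and 18 did not, where RPKM is the read count of a gene scaled to its exon length and to the mapped reads of the library. All genes passing the same filter numbered 9698.

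The neutrophils came from the bone marrow of Balb/C mice and were sorted as CD11b+, Ly6G high and Ly6C low cells. Both cultures received 10 ng/ml GM-CSF, a myeloid growth factor, for 3 days. One received PBS and the other 20 μg/ml exosomes, the vesicles shed by sphere-derived cancer stem cells (SDCSCs) grown from the murine colon carcinoma line CT26. Each treatment is 1 library, so there are no replicates, no error between cultures can be given and no test was made. The number of mice behind each culture is not given in the sources used here. An interval beside a ratio is a 95% exact Clopper-Pearson interval of estimated reads and covers counting error only.

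A Rab protein is active when it carries GTP and silent when it carries GDP. Exchange factors load GTP, GTPase-activating proteins return the Rab to the GDP form, and the GDP dissociation inhibitor lifts the silent, prenylated protein off the membrane. An active Rab recruits effectors, which tether, move or dock the vesicle. Neutrophils depend on this machinery both to take up particles into phagosomes and to release preformed granules, a step in which Rab27a is the best known Rab.

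The labelled cell type was checked first, since every value is an average over the cells in a library. All 10 neutrophil markers reached 0.25 RPKM in both libraries and their summed level was 84445 RPKM with PBS and 30447 RPKM with exosomes, with all 10 lower in the exosome library. All 12 monocyte and macrophage markers were higher in the exosome library, with a summed level of 165 against 463 RPKM. Cd68 (83.91 and 145.79 RPKM), Csf1r (58.1 and 152.64 RPKM) and Emr1, the F4/80 antigen (20.91 and 151.51 RPKM), carried most of that sum, while C1qa (0.18 and 1.42 RPKM) was near the filter with PBS. B cell markers summed to 108 and 66.9 RPKM, T and NK cell markers to 57.7 and 7.73 RPKM, of which Cd3d alone held 56.44 and 7.02 RPKM. Mast cell and basophil markers summed to 86.6 and 23.3 RPKM, nearly all from Hdc, dendritic cell markers to 3.53 and 2.23 RPKM, eosinophil markers to 10.5 and 5.45 RPKM and epithelial carcinoma markers to 0.59 and 0.21 RPKM, with Krt8 listed at 0 in both. These shifts run alongside every Rab result that follows, and their part in those results was not tested. In such bulk RNA, fewer cells of a type and less RNA per cell cannot be told apart.

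The Rab family as a whole kept a nearly level share of the transcriptome. The RPKM of the 58 genes summed to 1660 with PBS and to 1643 with exosomes, which is 0.463% and 0.474% of the summed RPKM of each library. The Rab genes kept were abundant, with a median of 23.7 RPKM with PBS and 24.9 RPKM with exosomes against 5.28 and 8.5 RPKM over all genes kept. In both libraries 27 Rab genes stood at 10 RPKM or more.

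Few Rab genes differed by as much as 2-fold. With exosomes, 4 of the 40 (10.0%) were at least 2-fold higher, while 31.5% of all genes kept were. Another 4 (10.0%) were at least 2-fold lower, against 5.62% of all genes kept. Once the median of all genes was set to 0, 1 Rab gene was called up and 7 down, against 16.8% and 13.2% of all genes, so that the balance turned. With the trimmed mean of all genes removed the counts were 1 and 8, against 16.5% and 13.6% of all genes. Centred on genes of like level they were 0 and 6, against 13.3% and 13.4%. As deposited, the remaining 32 (80.0%) lay within 2-fold, against 62.9% of all genes kept. As deposited, the 4 called up were Rab7l1, Rab12, Rab18 and Rab10, and the 4 called down were Rab23, Rab19, Rab44 and Rab3d.

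Both the calls and the signs depended on how the libraries were put on one scale. In the values as deposited, 24 Rab genes were higher and 16 lower with exosomes, but 9 were higher and 31 lower once the median log2 ratio of all genes kept, 0.53, was set to 0. With centring by level, 15 were higher and 25 lower. The median log2 ratio of exosome over PBS was 0.18 for the Rab genes (quartiles −0.21 and 0.39), and 31 of the 40 lay below the median of all genes. The size of the change, without its sign, had a median of 0.33 on the log2 scale for the Rab genes and of 0.74 for all genes kept. Both values are as deposited, with the all-gene median of 0.53 not removed and genes not matched by level.

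**Figure D1:**
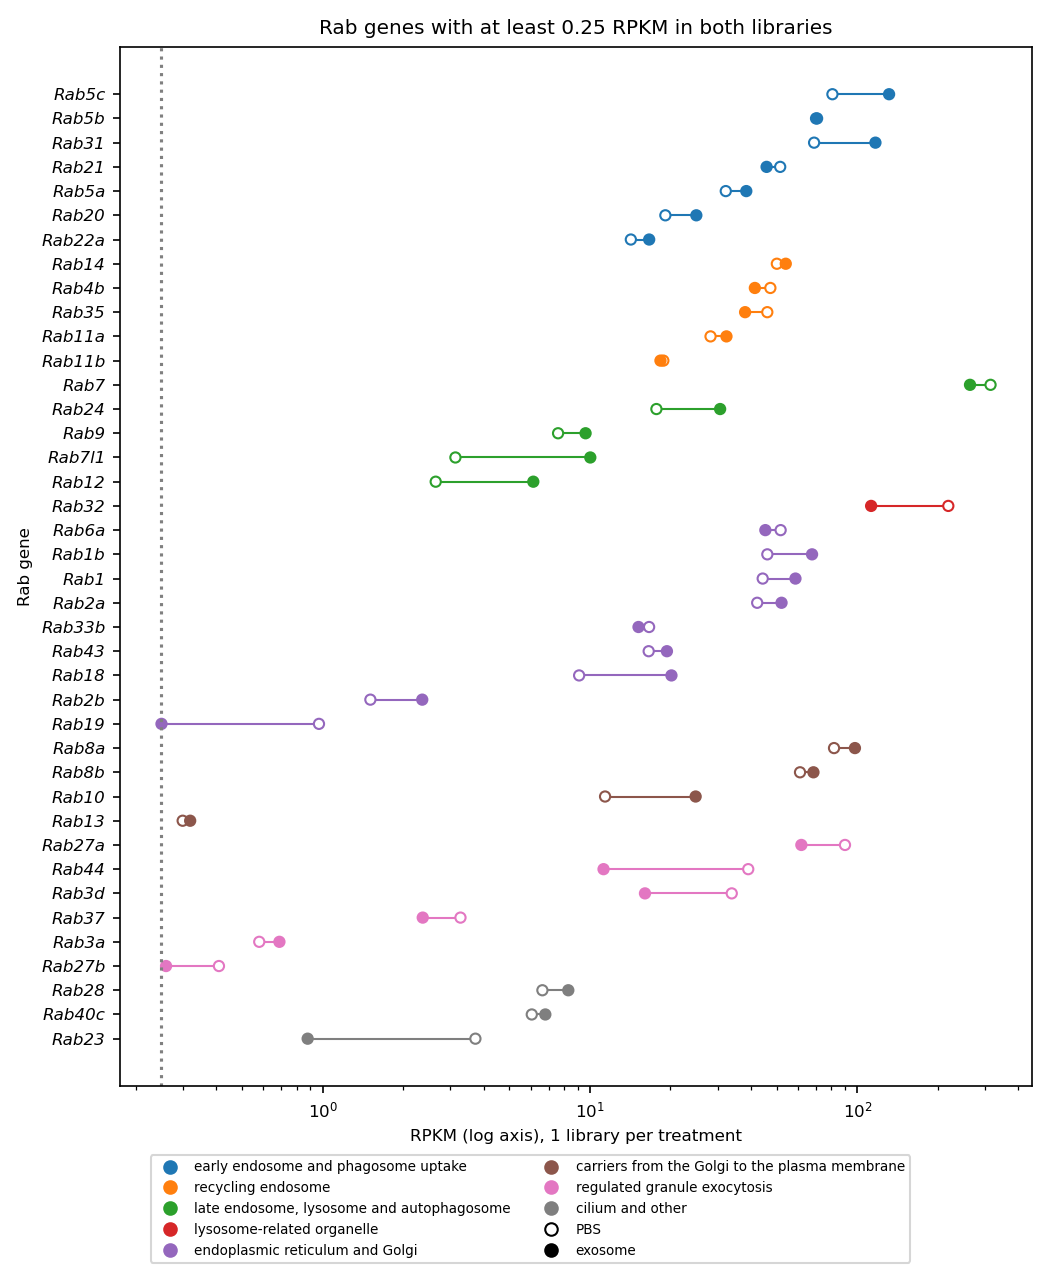
Level of each of the 40 Rab genes kept, in RPKM on a log axis, with open circles for the PBS library and filled circles for the exosome library and colours for the role of the gene. Granule exocytosis genes other than Rab3a have the exosome circle to the left of the PBS circle, and Rab7 is the highest Rab in both libraries. The dotted line marks 0.25 RPKM.

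Level and ratio were related among all genes, so Rab genes were also set beside genes of like level. Among genes with a mean of 1 to 5 RPKM, 50.2% of all genes were called up and the median log2 ratio was 1.0, whereas 1 of the 4 Rab genes in that range was called up. Among genes with a mean of at least 50 RPKM, 12.5% were called up and 11.4% down, and none of the 11 Rab genes was called either way, with a median log2 ratio of 0.17 against 0.04 for all genes. Between 10 and 50 RPKM, 2 of 17 Rab genes were called up and 2 down, against 18.4% and 5.15% of all genes, with medians of 0.20 and 0.31.

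**Figure D2:**
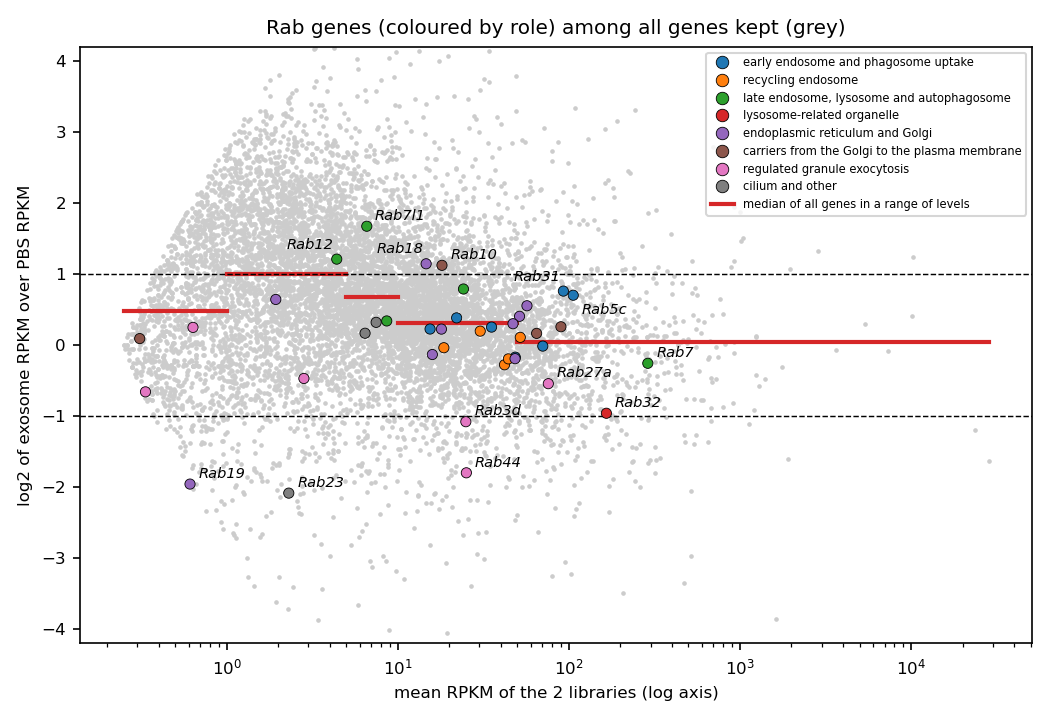
Log2 ratio of exosome over PBS RPKM against the mean RPKM of the 2 libraries on a log axis, with all genes kept in grey (27 lie outside the vertical range) and Rab genes coloured by role. Red bars give the median of all genes in 5 ranges of level and fall from 1.0 between 1 and 5 RPKM to 0.04 at 50 RPKM or more, while Rab44, Rab19 and Rab23 lie far below them.

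Rabs of regulated granule exocytosis mostly stood lower with exosomes. Of the group's 9 genes 6 were kept, 5 of them were lower with exosomes, 2 of them by at least 2-fold, and the median log2 ratio was −0.60. Of all genes kept, 5.62% were called down. Setting the median of all genes to 0, or centring by level, gave 4 genes of the group called down, and removing the trimmed mean gave 5. Of all genes kept, 13.2%, 13.4% and 13.6% were called down under these settings, in the same order. The summed level of the group was 167 RPKM with PBS and 92.4 RPKM with exosomes, and its share of all Rab transcripts was 10.07% and 5.62%. A share within one library does not depend on the scaling between libraries. The neutrophil markers moved the same way, Ly6g from 286.96 to 56.19 RPKM among them, and their part in this result was not tested.

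Rab27a, which docks azurophilic and other secretory granules at the plasma membrane, was the third most abundant Rab with PBS. It stood at 89.87 RPKM with PBS and 61.72 RPKM with exosomes, where it ranked 9 among the Rabs. The log2 ratio was −0.54 (−0.57 to −0.51), short of the 2-fold limit, and −1.07 after the median of all genes was set to 0. Against genes of like level the ratio of Rab27a was −0.55. Its paralogue Rab27b stood at 0.41 and 0.26 RPKM, so that Rab27a made up 99.55% and 99.58% of the RPKM of the pair. The Rab27a gene lies on the plus strand at chr9:73044854-73097629 of GRCm38, the build also called mm10.

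Rab44, a large Rab that carries calcium-binding EF hands and is found in immune cells, showed the widest difference in the group. It was at 39.07 RPKM with PBS and 11.24 RPKM with exosomes, a log2 ratio of −1.80 (−1.85 to −1.75) from an estimated 12121 and 4182 reads. Among Rab genes it moved from rank 17 to rank 28. The gene lies on the plus strand at chr17:29114145-29148980.

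Rab3d, the Rab3 form of non-neuronal secretory granules, was at 33.9 RPKM with PBS and 16.06 RPKM with exosomes. Its log2 ratio was −1.08 (−1.13 to −1.03), and it held 98.28% and 95.77% of all Rab3 transcripts. Rab3a, the form of synaptic vesicles, was the one kept gene of the group that was not lower, at 0.58 and 0.69 RPKM, with an interval from −0.25 to 0.78 that includes 0. Rab37, a Rab of secretory granules in leukocytes, was at 3.28 and 2.37 RPKM, a log2 ratio of −0.47 (−0.64 to −0.30). Rab3b (0.01 and 0.02 RPKM) and Rab26 (0.02 and 0.02 RPKM) were scarcely present, and Rab3c was at 0.00178 RPKM with PBS and listed at 0 with exosomes.

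The bases just before the start sites of Rab27a and Rab3d are shown because these genes carry most of the group's transcripts outside Rab44, for which no sequence was at hand. Each comes from a window of 250 bases before the RefSeq start (GRCm38.p6), without the bases that GENCODE, the source of the gene positions given here, places inside the gene. They are written 5′ to 3′ on the strand of the gene, with motif matches in capitals. For Rab27a, chr9:73044560-73044809 on the plus strand is the first of 2 windows and ends 44 bases before the GENCODE gene. For Rab3d the stretch is chr9:21918193-21918433 on the minus strand, with 9 bases left off.
Rab27a: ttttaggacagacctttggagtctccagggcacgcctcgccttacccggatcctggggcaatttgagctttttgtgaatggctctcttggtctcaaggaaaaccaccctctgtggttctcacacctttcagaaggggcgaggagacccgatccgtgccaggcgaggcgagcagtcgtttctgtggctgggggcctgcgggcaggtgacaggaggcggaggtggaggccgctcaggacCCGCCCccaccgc
Rab3d: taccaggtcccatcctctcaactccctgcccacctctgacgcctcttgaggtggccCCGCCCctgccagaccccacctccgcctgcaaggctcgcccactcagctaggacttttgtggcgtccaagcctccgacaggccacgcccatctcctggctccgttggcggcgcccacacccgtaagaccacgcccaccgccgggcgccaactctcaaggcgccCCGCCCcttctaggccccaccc
The capitals are GC boxes, spelled GGGCGG and on the opposite strand CCGCCC, 1 in Rab27a and 2 in Rab3d. A GC box was present in 30 of 43 windows of the Rab genes kept (69.77%, from the 35 of them with an entry) and in 32.74% of all 32851 windows. Rab windows also held more G and C, with a median of 62.0% against 52.4%. The whole Rab27a window had 62.0% G and C and that of Rab3d 69.2%. A match to letters is a description of the sequence and says nothing of binding in these cells.

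Rab32 works beside the granule Rabs, in the biogenesis of lysosome-related organelles such as melanosomes. With PBS it was the second most abundant Rab, at 218.75 RPKM, and with exosomes the fourth, at 112.55 RPKM. The log2 ratio of −0.96 (−0.98 to −0.93) lay just inside the 2-fold limit. It was −1.49 after median centring and −0.97 against genes of like level. Its share of all Rab transcripts, taken with its paralogue Rab38 (0.17 and 0.12 RPKM), was 13.19% and 6.86%. The gene lies on the minus strand at chr10:10545002-10558265.

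The partners of Rab27 and Rab3 were read next. Of 12 effectors found in the tables, 2 were kept. Sytl1, a synaptotagmin-like Rab27 effector also known as JFC1 or Slp1, was at 10.38 RPKM with PBS and 2.97 RPKM with exosomes, a log2 ratio of −1.81 (−1.96 to −1.65). Unc13d, the Munc13-4 protein that primes granules for fusion, was at 23.14 and 14.33 RPKM, a log2 ratio of −0.69. Sytl3 (0.46 and 0.05 RPKM) and Rph3al (0.46 and 0.08 RPKM) reached the filter with PBS alone, and the other 8 lay below it in both libraries.

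Granule cargo did not move one way. Of 19 cargo genes, all kept, 7 were called down and 4 up, beside 5.62% and 31.5% of all genes kept, with a median log2 ratio of 0.33 that turned to −0.22 after the trimmed mean of all genes was removed. All 7 called down were at least 4-fold lower, among them Camp (381.38 and 33.92 RPKM), Ngp (862.34 and 85.01 RPKM) and Ltf (143.98 and 15.09 RPKM), which encode proteins of specific granules, and Chi3l3 (26.87 and 3.82 RPKM). Cybb, the catalytic chain of the phagocyte NADPH oxidase, was 69.67 and 295.08 RPKM, a log2 ratio of 2.08. Lcn2, another specific granule protein and the most abundant cargo transcript of the list, was higher with exosomes, at 1625.81 and 4080.94 RPKM, a log2 ratio of 1.33 (named after its value was seen). Several of these cargo genes are also neutrophil markers in the list above.

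**Figure D3:**
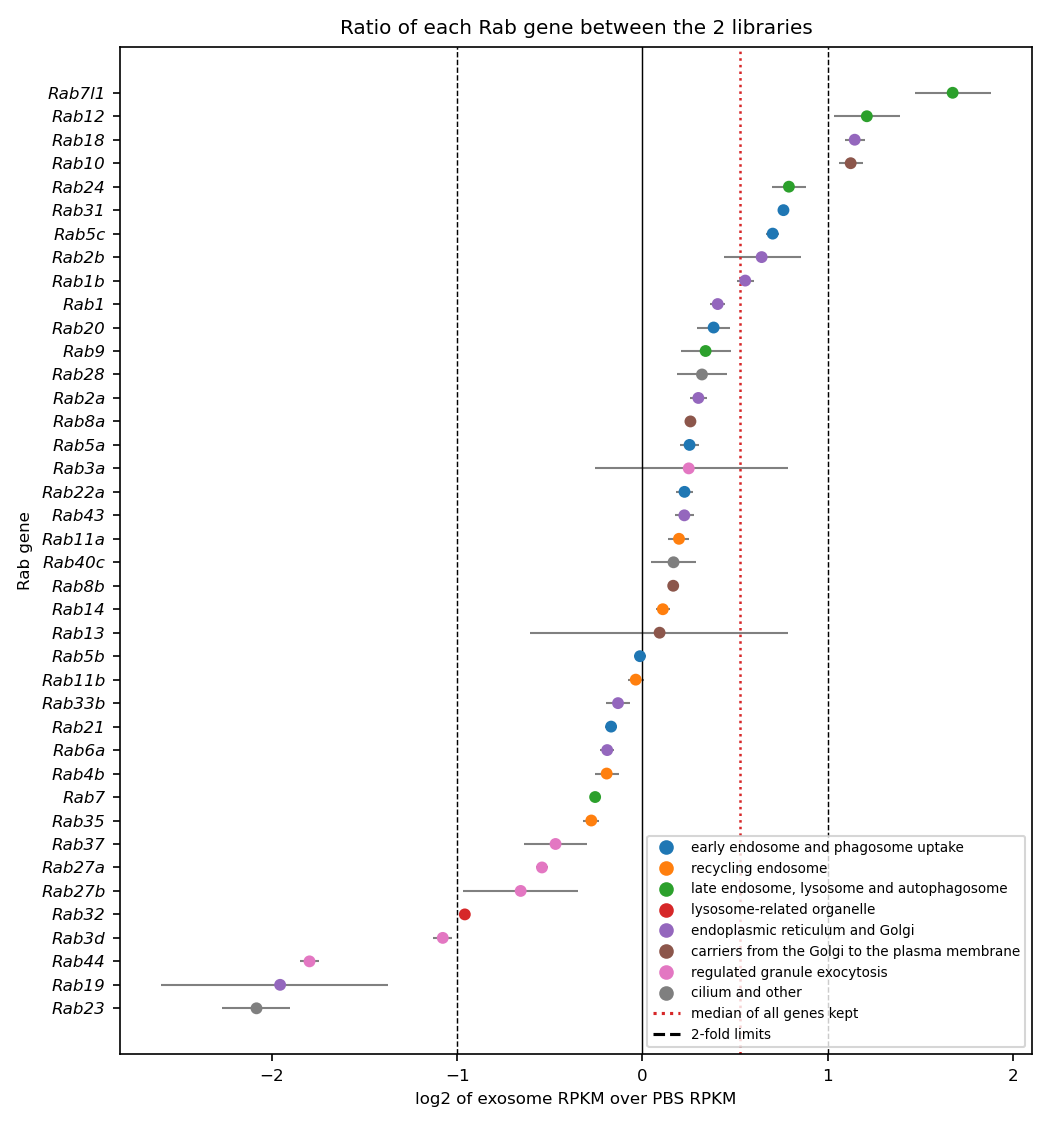
Log2 ratio of exosome over PBS RPKM for the 40 Rab genes kept, from highest to lowest, coloured by role, with bars for the 95% counting interval (narrower than the point for many genes). Dashed lines mark 2-fold limits and the dotted line the median of all genes kept, 0.53, and 31 Rab genes lie to its left.

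Early endosome Rabs took a larger share of Rab transcripts with exosomes. These Rabs govern fusion of incoming vesicles and the first steps of phagosome maturation. Of 8 genes 7 were kept, 5 were higher and 2 lower with exosomes, none by 2-fold, with a median log2 ratio of 0.25. The median was −0.27 after median centring and 0.07 against genes of like level. The group made up 20.31% of Rab transcripts with PBS (337 RPKM) and 27.02% with exosomes (444 RPKM).

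The gain lay mostly in 2 genes. Rab5c, one of the 3 Rab5 forms that drive early endosome fusion, was at 80.65 RPKM with PBS and 131.36 RPKM with exosomes, a log2 ratio of 0.70 (0.67 to 0.74), and passed from rank 5 to rank 2 among Rabs. Rab31, which works between the trans-Golgi network and endosomes and on phagosomes, was at 68.88 and 116.8 RPKM, a log2 ratio of 0.76 (0.73 to 0.79), and passed from rank 7 to rank 3. Both stayed higher with exosomes under every scaling, as the plot of scalings shows.

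The Rab5 forms did not move together. Rab5b was at 70.68 RPKM with PBS and 70.05 RPKM with exosomes, with a counting interval (−0.04 to 0.02) that includes 0. Rab5a was at 32.2 and 38.42 RPKM, a log2 ratio of 0.25 (0.20 to 0.31). The ratio of Rab5a falls below 0 after median centring and is 0.09 against genes of like level. Rab5c thereby made up 43.94% of the 3 forms with PBS and 54.77% with exosomes, Rab5b 38.51% and 29.21%, and Rab5a 17.54% and 16.02%. The lowest ratio in the group belonged to Rab21, which accompanies integrins into endosomes, at 51.44 and 45.76 RPKM, a log2 ratio of −0.17 (−0.20 to −0.14). Rab20, a Rab of phagosome maturation, was at 19.14 and 24.99 RPKM, Rab22a at 14.22 and 16.65 RPKM, and Rab17 was not kept.

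Recycling endosome Rabs, which return receptors to the surface, had the narrowest range of ratios among the groups with more than 1 gene kept. Of 8 genes 5 were kept, and as deposited their log2 ratios ran from −0.28 to 0.20 with a median of −0.04. The median was −0.56 after median centring and −0.35 against genes of like level. None was called under these settings, though Rab35 stood at −0.80 after median centring. Rab11a, the main Rab of the recycling endosome, was at 28.24 RPKM with PBS and 32.39 RPKM with exosomes, and Rab11b at 18.81 and 18.35 RPKM. The interval of Rab11b (−0.08 to 0.01) includes 0. Rab35, which acts in fast recycling, had the lowest ratio of the group at 46.04 and 38.03 RPKM, a log2 ratio of −0.28 (−0.32 to −0.23). Rab14, which links the Golgi with endosomes, was at 49.99 and 53.97 RPKM, and Rab4b, the Rab4 form present here, at 47.27 and 41.36 RPKM. The group's share of Rab transcripts was 11.48% and 11.23%. Rab4a, Rab15 and Rab25 lay below the filter in both libraries, at no more than 0.17 RPKM.

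Rabs of the late endosome, lysosome and autophagosome held the Rab with the highest level and the Rab with the highest ratio. Rab7, which brings late endosomes to lysosomes, headed the family in both libraries at 314.68 RPKM with PBS and 263.7 RPKM with exosomes, a log2 ratio of −0.26 (−0.27 to −0.24). Of the group's 9 genes 5 were kept, 4 were higher and 1, Rab7, was lower, and 2 were called up, beside 31.5% of all genes kept. With centring by level 0 of the group were called up, beside 13.3% of all genes. Because Rab7 outweighs the rest, the group's share of Rab transcripts was lower with exosomes, at 19.49% against 20.83%.

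Rab7l1, now named Rab29, is a Rab of the trans-Golgi network and of stressed lysosomes that recruits the kinase LRRK2. It was at 3.14 RPKM with PBS and 10.03 RPKM with exosomes, a log2 ratio of 1.68 (1.47 to 1.88). Genes of like level also stood higher with exosomes, and against their median the ratio was 0.97. The gene lies on the plus strand at chr1:131867224-131872887. Rab7b, listed under the older name 5430435G22Rik and so outside the naming rule, was at 0.85 and 2.3 RPKM, a log2 ratio of 1.44 (1.23 to 1.65), and 0.32 against genes of like level.

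Rab12, which sends recycling receptors to lysosomes, was at 2.65 RPKM with PBS and 6.14 RPKM with exosomes, a log2 ratio of 1.21 (1.04 to 1.39), and 0.30 against genes of like level. It lies on the minus strand at chr17:66494512-66519729. Rab9, which serves traffic from late endosomes to the Golgi, was at 7.6 and 9.63 RPKM. Rab24, linked to autophagy, was at 17.72 and 30.67 RPKM, a log2 ratio of 0.79 that is also the median of the group. Exons of Prelid1 on the opposite strand cover 66.4% of the exon bases of Rab24, and Prelid1 was at 92.59 and 176.49 RPKM. Whether reads were counted by strand is not stated, so the value of Rab24 is uncertain. No other Rab gene kept shared more than 25.6% of its exon bases with another gene.

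Rabs of the endoplasmic reticulum and Golgi made up 13.83% of Rab transcripts with PBS and 17.15% with exosomes. Of 14 genes 9 were kept, 6 were higher and 3 lower, with 1 called each way, beside 31.5% up and 5.62% down of all genes kept. The median log2 ratio was 0.30, −0.22 after median centring and −0.09 against genes of like level. Rab18, a Rab of the endoplasmic reticulum and lipid droplets, was at 9.11 RPKM with PBS and 20.17 RPKM with exosomes, a log2 ratio of 1.15 (1.09 to 1.2). Rab19 was at 0.97 and 0.25 RPKM, a log2 ratio of −1.96 (−2.60 to −1.37) that rests on an estimated 101 and 31 reads and on a value at the filter itself. The abundant Rabs of early secretion moved less, with Rab1 at 44.25 and 58.67 RPKM, Rab1b at 46.05 and 67.68 RPKM and Rab2a at 42.2 and 52.04 RPKM. Its paralogue Rab2b was at 1.51 and 2.36 RPKM. Rab6a, of transport within and out of the Golgi, was at 51.64 and 45.27 RPKM, Rab33b, which binds the autophagy protein Atg16l1, at 16.64 and 15.19 RPKM, and Rab43 at 16.58 and 19.4 RPKM.

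The carriers from the Golgi to the plasma membrane were all kept and all 4 were higher with exosomes as deposited, with a median log2 ratio of 0.21. That median was −0.31 after median centring, but 0.20 against genes of like level. Rab10, which drives carriers to the surface and is a target of LRRK2, was at 11.39 RPKM with PBS and 24.84 RPKM with exosomes, a log2 ratio of 1.12 (1.06 to 1.19). Its share among Rab8a, Rab8b, Rab10 and Rab13 was 7.37% and 12.97%. Rab8a led this set at 81.78 and 97.9 RPKM, ahead of Rab8b at 61.02 and 68.49 RPKM. Rab13, at 0.3 and 0.32 RPKM, had the lowest ratio with an interval (−0.61 to 0.79) that includes 0. The Rab10 gene lies on the minus strand at chr12:3247428-3309969.

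The sequences before the genes of 3 of the 4 Rab genes called up are given in the same form, to set beside those of Rab27a and Rab3d. They are chr1:131867027-131867223 on the plus strand for Rab7l1, with 53 bases left off, chr17:66519730-66519920 on the minus strand for Rab12, with 59 bases left off, and chr12:3309970-3310219 on the minus strand for Rab10.
Rab7l1: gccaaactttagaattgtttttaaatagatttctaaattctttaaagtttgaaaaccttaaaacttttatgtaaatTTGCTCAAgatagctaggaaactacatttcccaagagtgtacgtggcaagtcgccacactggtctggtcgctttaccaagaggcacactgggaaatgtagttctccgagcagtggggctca
Rab12: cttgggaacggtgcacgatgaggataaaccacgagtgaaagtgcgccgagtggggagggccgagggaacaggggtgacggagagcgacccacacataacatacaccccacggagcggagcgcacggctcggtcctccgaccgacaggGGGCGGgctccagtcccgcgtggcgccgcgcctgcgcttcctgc
Rab10: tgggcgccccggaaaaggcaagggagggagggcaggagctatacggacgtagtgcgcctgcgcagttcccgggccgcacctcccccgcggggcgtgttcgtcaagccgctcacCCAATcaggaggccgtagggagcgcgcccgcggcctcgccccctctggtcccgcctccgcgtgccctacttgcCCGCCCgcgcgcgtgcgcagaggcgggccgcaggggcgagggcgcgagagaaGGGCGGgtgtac
The capitals in Rab7l1 mark 1 match to TTGCNNAA, letters bound by C/EBP factors, which 9.56% of all windows and 3 of the 43 Rab windows hold, and this stretch has no GC box. In Rab12 they mark 1 GC box. In Rab10 they mark 2 GC boxes and 1 CCAAT box, which 33.85% of all windows and 20 of the 43 Rab windows hold. The 3 whole windows held 44.0%, 67.6% and 74.8% G and C, and no motif searched was common to the 3 stretches printed. The other motifs searched, each on both strands, were GAGGAA, a core bound by the myeloid factor PU.1, in 23.25% of all windows, the E-box CACGTG, in 6.02% of all windows, the ETS core CCGGAAGT, in 2.88%, the TATA box TATAAA, in 12.37%, and the cyclic AMP element TGACGTCA, in 1.55%. None of these is present in the 5 sequences printed, but the percentages count whole windows. The bases left off for Rab12 hold 1 GAGGAA match. The second Rab27a window, not printed, holds 1 E-box and 2 CCAAT boxes.

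Of the Rabs outside these routes, Rab23 had the lowest ratio of the family. Rab23, a negative regulator of Hedgehog signalling that acts at the cilium, was at 3.73 RPKM with PBS and 0.88 RPKM with exosomes, a log2 ratio of −2.08 (−2.27 to −1.90), and lies on the plus strand at chr1:33719887-33742564. Rab28 was at 6.64 and 8.3 RPKM, which was the highest ratio of this set, and Rab40c at 6.06 and 6.81 RPKM.

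**Figure D4:**
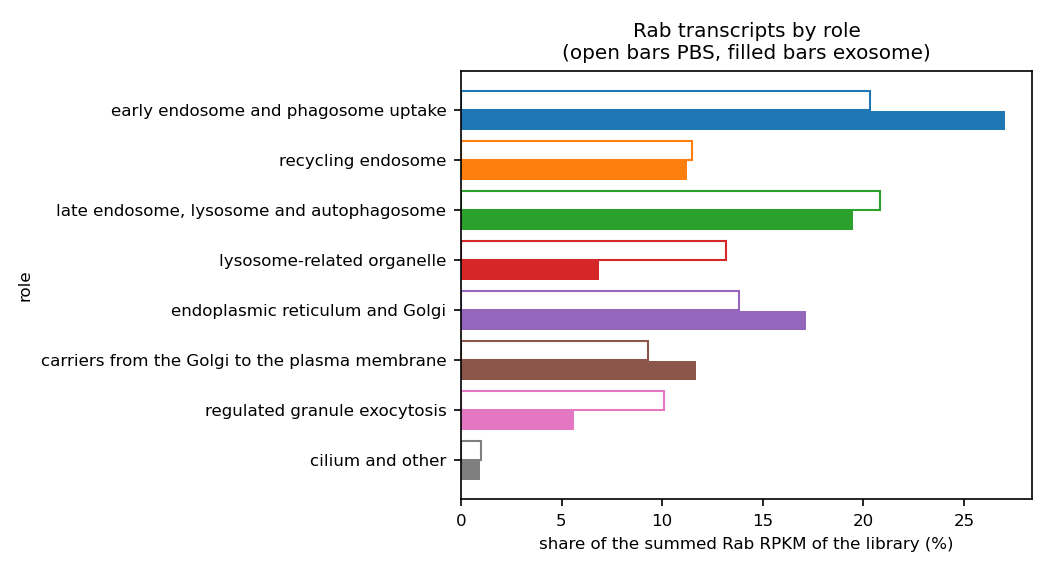
Share of the summed Rab RPKM of each library held by each role, in percent, with open bars for PBS and filled bars for exosomes. Early endosome Rabs go from 20.31% to 27.02%, granule exocytosis Rabs from 10.07% to 5.62% and the lysosome-related pair from 13.19% to 6.86%.

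The Rab genes that were not kept were scarce in both libraries. Of the 18, 16 lay below 0.25 RPKM in both libraries and reached at most 0.19 RPKM. Rab30 reached the filter with PBS alone (0.35 and 0.22 RPKM) and Rab33a with exosomes alone (0.12 and 0.26 RPKM), which places them just outside it, as Rab19, Rab27b and Rab13 are just inside. Of the 5 listed at 0 in one library, Rab17, Rab9b, Rab6b and Rab3c were at 0 with exosomes, at less than 0.01 RPKM with PBS, and Rab42 was at 0 with PBS. The 4 pseudogene features named after Rab11b, Rab7 and Rab9b were listed at 0 in both.

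The machinery that all Rabs share was read from lists of regulators. Of the 8 genes of GDP dissociation, escort and prenylation, 7 were kept and none reached 2-fold. Gdi2, a GDP dissociation inhibitor, was at 56.98 RPKM with PBS and 81.37 RPKM with exosomes, a log2 ratio of 0.51. The ratio of Gdi2 is slightly below 0 after median centring and 0.50 against genes of like level. Rabggtb, the catalytic chain of the transferase that prenylates Rabs, was at 2.71 and 5.29 RPKM, and its partner chain Rabggta at 7.21 and 7.87 RPKM. Chm, the escort protein, was at 8.5 and 9.96 RPKM with its relative Chml listed at 0 in both, Rabac1 was at 130.52 and 107.82 RPKM and Rabif at 11.1 and 21.19 RPKM.

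Regulators of the GTP cycle were counted beside all genes kept, of which 31.5% were called up and 5.62% down as deposited. The shares of all genes were 16.8% and 13.2% after median centring, and 13.3% and 13.4% with centring by level. At a ratio of 4 they were 8.52% and 1.14%. Of 32 exchange factors 27 were kept, 3 were called up and none down, but 2 up and 6 down after median centring. With centring by level 1 was up and 5 down. The one that changed at least 4-fold was Sbf2, near the filter at 0.36 RPKM with PBS and at 2.55 RPKM with exosomes. Of 37 GTPase-activating proteins 30 were kept, 7 were called up and 4 down, but 3 up and 6 down after median centring. With centring by level 1 of them was up and 5 down. Tbc1d7 (0.29 and 1.42 RPKM), better known as a subunit of the TSC complex, and Tbc1d8b (0.46 and 1.98 RPKM) differed by at least 4-fold. Both were near the filter with PBS, Tbc1d7 at an estimated 24 reads.

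Of 33 effectors on endosomes 30 were kept, 8 called up and 2 down, beside 31.5% and 5.62% of all genes kept. After median centring 4 were up and 5 down, and with centring by level 3 and 4. Appl2, an adaptor of Rab5 endosomes, was at 1.23 RPKM with PBS and 6.69 RPKM with exosomes, a log2 ratio of 2.44. Rilpl2, a partner of LRRK2-modified Rab8 and Rab10, was at 24.47 and 112.45 RPKM, a log2 ratio of 2.20. Rab11fip4, a Rab11 effector, went the other way, from 10.33 to 1.59 RPKM, a log2 ratio of −2.70. Of the Rab5, Rab8, Rab10 and Rab11 genes themselves, Rab10 was the one called.

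At the plasma membrane, 1 of the 9 exocyst subunits, all kept, was called up and none down, beside 31.5% and 5.62% of all genes kept. It was Exoc4, at 0.78 RPKM with PBS and 3.43 RPKM with exosomes. Of 16 SNAREs and Munc18 proteins, a list not limited to the plasma membrane, 15 were kept, with 2 called up, 1 down and none at 4-fold. The same shares of all genes kept stand beside these counts. After median centring 1 was called each way in either list. With centring by level the exocyst had 1 up and 0 down, and the SNARE list 0 up and 1 down. As deposited, the SNAREs called up were Stx8 (0.49 and 1.84 RPKM) and Snap29 (9.21 and 22.22 RPKM). The one called down was Stx11, a syntaxin needed for cytotoxic granule release, at 142.98 and 58.94 RPKM. All of them were named after their values were seen.

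**Figure D5:**
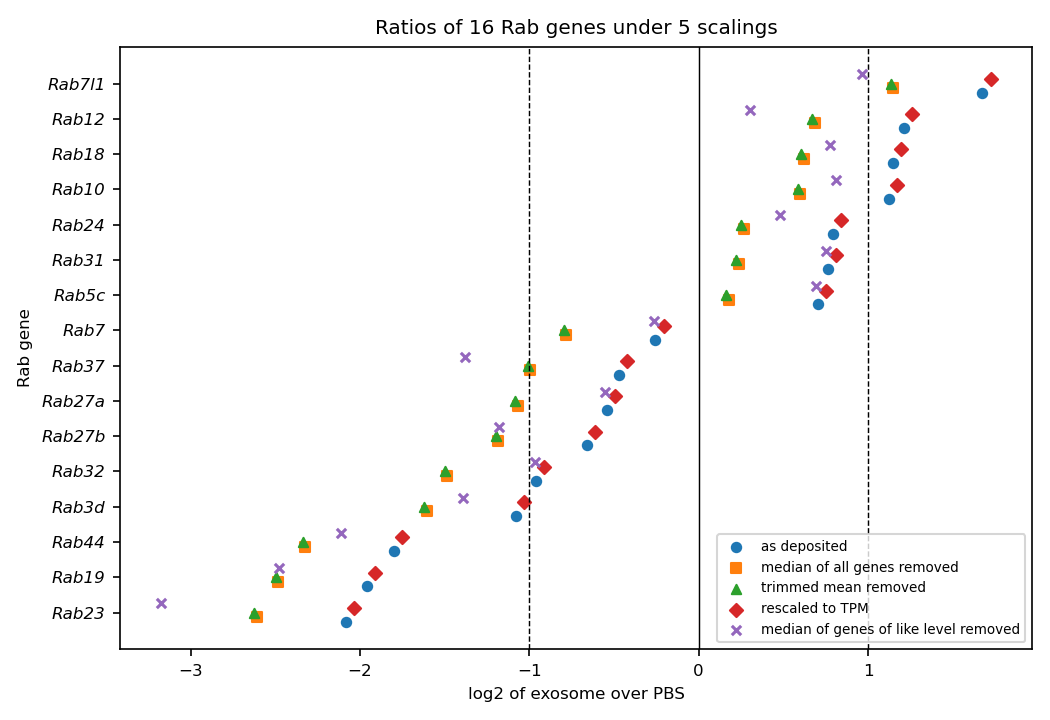
Log2 ratio of exosome over PBS for 16 Rab genes under 5 scalings, 1 mark for each. Rab44, Rab19, Rab23 and Rab3d stay left of the lower 2-fold limit (dashed) under all 5, whereas Rab10, Rab12 and Rab18 stay right of the upper limit as deposited and after rescaling to TPM but not under the other 3.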

How the data were processed

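Total RNA was extracted with TRIzol, and libraries were prepared with a TruSeq mRNA kit and sequenced on a HiSeq system. Trimming and RPKM calculation by the authors were done with CLC Genomics Workbench, and the deposited RPKM tables, per the labels on build mm10, list 1 value per feature. The gene annotation, the treatment of reads matching several genes, strand and any scaling between libraries are not given in the sources used here.

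A gene was kept at an RPKM of at least 0.25 in both libraries and called at a ratio of at least 2 or at most 0.5, with no pseudocount. Mapped reads were estimated as 65.97 M for PBS and 79.12 M for exosomes from single-read values below 0.01 RPKM and exon lengths in GENCODE annotation of GRCm38. The Rab genes kept rest on 31 to 54455 estimated reads. Levels are compared between genes in RPKM, which is per length. With 1 library per treatment no test was made.

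The Rab genes and the lists of roles, regulators and markers were chosen with earlier results of these data known. Named genes are those called, all of the granule group, the Rab5, Rab7, Rab11 and Rab27 paralogues, the 3 highest in each library, the extremes of each role, both partner lists of Rab27 and of dissociation and prenylation, and other listed regulators that changed at least 4-fold. Others are named for description, and some listed genes are not reported here. Alternatives were 3 scalings between libraries (median, trimmed mean with 30% of ratios and 5% of levels left out at each end, TPM), centring within 10 bins of level, 2 filters, a pseudocount of 1 and a ratio of 4. Overlaps between exons were added after the data were seen. Calculations used Python 3.11.15 with pandas 2.3.3 and scipy 1.17.1, and were tested on simulated data.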

Additional observations from a re-analysis of the deposited data

How the results depend on the processing

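No paired analysis was possible because each treatment is 1 library, and no library could be left out. The median log2 ratio of all genes kept moved from 0.53 to 0 under median centring, to −0.02 with the trimmed mean removed and to 0.57 as TPM. The Rab genes called up numbered 4, but 1 under median centring, 1 with the trimmed mean removed and 0 under level centring or at a ratio of 4. Those called down numbered 4, but 7 under median centring, 8 with the trimmed mean removed, 2 at 1 RPKM or more (35 genes) and 1 at a ratio of 4. The median log2 ratio of the Rab genes turned from 0.18 to −0.34 under median centring, −0.36 with the trimmed mean removed and −0.23 under level centring. All genes called shifted too, from 31.5% up and 5.62% down to 16.8% and 13.2% under median centring. The shares of all genes were 16.5% and 13.6% with the trimmed mean removed and 13.3% and 13.4% under level centring. At 1 RPKM or more they were 25.6% and 5.34%, and at a ratio of 4 they were 8.52% and 1.14%. Of the 40 genes, 31 held their call wherever they were measured under the scalings, filters and pseudocount, but most of these were called within 2-fold. Among the genes called up or down, Rab23, Rab44 and Rab3d held their call. Rab10, Rab12, Rab18, Rab7l1 and Rab19 lost it under at least 1 setting. At a ratio of 4, Rab23 was the one gene still called. Rab10, Rab12 and Rab18 lost theirs under median centring (0.60, 0.69 and 0.62), and Rab7l1 lost its call under level centring (0.97). Rab27a and Rab32 were called down under median centring (−1.07 and −1.49) and with the trimmed mean removed (−1.08 and −1.50), but not under level centring (−0.55 and −0.97). Rab27b was called down under median centring, with the trimmed mean removed and under level centring. Rab37 was called down with the trimmed mean removed (−1.01) and under level centring (−1.38). With a pseudocount of 1, Rab12 (0.97) and Rab19 (−0.66) lost their calls. No called gene changed sign. What causes the shift of the whole distribution was not tested. Depth limits only the scarce genes, as with Rab13, Rab3a and Rab19.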
